A study of Homo sapiens with 12 samples.

Results

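The outer and inner mitochondrial membranes carry the machines that bring proteins into mitochondria, and the genes for their subunits were followed here in oral keratinocytes. The set was every protein-coding gene whose symbol starts with TIMM or TOMM and a digit, which gave 25 genes of the 58735 in the count table and of its 19951 protein-coding genes. The rule used symbols only and no measured value. Of the 25 genes, 24 had a count in at least 1 library, and 23 passed the filter on low counts in every comparison. TOMM20L and TOMM6 did not pass it. All counts of tested genes below are out of these 23.

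The cells were TIGK, one telomerase-immortalized line of gingival keratinocytes of human origin, kept in 48 mM glucose in all groups. The control groups received no added L-arginine (Arg) and were harvested at 24 h or 48 h, and the Arg groups received 500 μM Arg for 24 h or 48 h. The paper describes the base medium of its assays as free of Arg, so the controls were not in an Arg-containing base medium. Each of these 4 groups had 3 libraries of poly(A) RNA, named A, B and C. The sources used here do not say that the replicates of a group were separate cultures, so the p-values measure the spread between these samples, which may be technical. Time in culture and time after the addition of Arg cannot be told apart in the Arg groups. In the controls, time in culture cannot be told apart from time without added Arg. In both arms, time cannot be told apart from other differences between the harvests.

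Nearly all mitochondrial proteins are encoded in the nucleus, made in the cytosol and imported. The TOM complex of the outer membrane is their common entry gate, with receptors that recognize the precursors and a channel formed by TOMM40. Past it, the TIM23 complex moves precursors with a cleavable presequence into the inner membrane or the matrix, where a motor anchored by TIMM44 pulls them in, and the TIM22 complex inserts carrier proteins, which small TIM chaperones guide across the intermembrane space.

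The libraries held between 16542243 and 19040964 counts. Mitochondrially encoded genes took 1.20% to 1.30% of the counts in the 24 h control and 0.624% to 0.802% with Arg at 24 h. At 48 h they took 0.707%, 0.906% and 1.55% in the control, where replicate B was highest, and 1.14% to 1.31% with Arg. With the mitochondrially encoded genes left out of the fits, the numbers of import genes called were the same in every comparison. All 9 keratinocyte marker genes were above 1 CPM, with a summed level of 42100 to 54500 CPM. Of the markers of other cells, 3 of 7 for fibroblasts (summed level 30.2 to 102 CPM), 1 of 4 for melanocytes (1.03 to 3.05 CPM), 1 of 4 for endothelial cells (0.756 to 6.41 CPM) and 1 of 5 for leukocytes (0.99 to 3.56 CPM) passed that level, and the defining genes TYR and LYZ were at 0 in every library.

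The main difference in the import genes was between the 24 h and the 48 h libraries. From 24 h to 48 h, 7 of the 23 tested genes fell without Arg and 14 of 23 fell with Arg, at an adjusted p under 0.05 in edgeR's quasi-likelihood test, and 0 rose in either arm. Across all genes tested, 10% fell and 9.90% rose without Arg, and 14.0% fell and 14.3% rose with Arg. Arg itself changed 0 of the 23 genes at 24 h or at 48 h at that threshold. In bulk RNA, fewer cells of a type and less RNA per cell cannot be told apart.

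Levels are given as CPM, the reads of a gene per 1000000 counts of its library after TMM scaling, and, where genes are compared with each other, as CPM per kilobase of exon. Averaged over the 12 libraries, TOMM22, the central receptor of the TOM complex, had the highest level at 95.5 CPM per kilobase. TIMM8B followed at 94.1, TIMM23 at 88.3 and the presequence receptor TOMM20 at 67.7 CPM per kilobase. The lowest of the tested genes were TIMM23B at 4.13 and the small TOM subunit TOMM5 at 0.274 CPM per kilobase, the latter from 216 counts over all libraries.

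**Figure D1:**
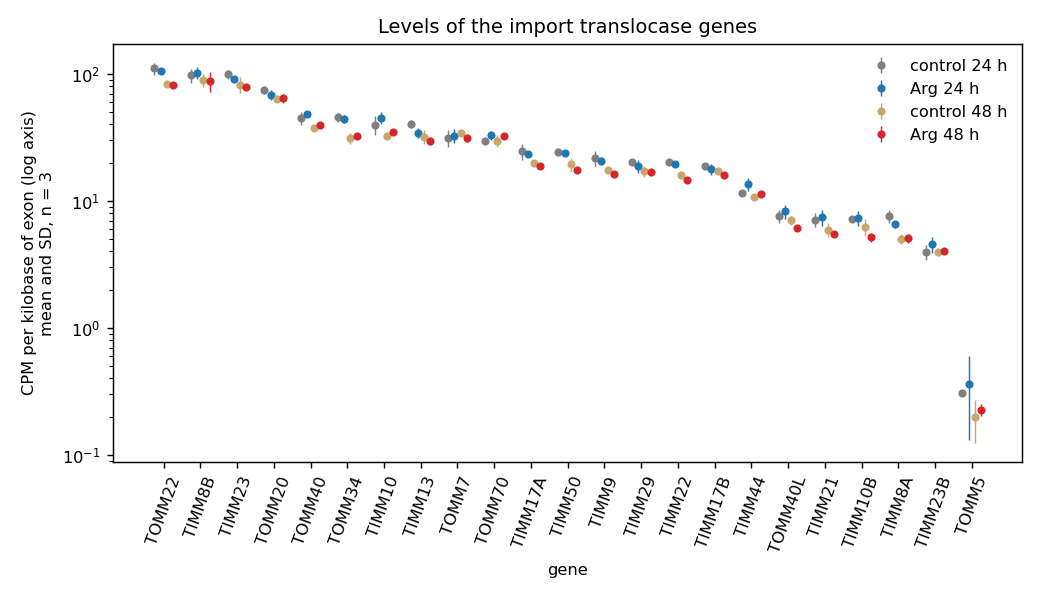
Mean level of each tested gene in the 4 groups, in CPM per kilobase of exon on a log axis, with SD bars (n = 3). TOMM22 has the highest mean over the 12 libraries and TOMM5 the lowest. At 48 h TIMM8B is above TOMM22 with and without Arg. Most genes have both 48 h points below both 24 h points.

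TOMM20L, a relative of TOMM20, had 36 counts over all libraries. TOMM6, a small TOM subunit, had 0 counts in all 12 libraries, where the limit of 3 counts per library corresponds to 0.155 to 0.178 CPM and covers counting error only. In GENCODE v44, all 637 exonic bases of TOMM6 are shared with another gene, ENSG00000124593, which had 241 counts, and how reads on overlapping genes were counted is not given in the sources used here. Exonic bases are also shared in TIMM23B (31.1%), TIMM8B (30.1%), TIMM9 (26.6%), TOMM40L (20.3%) and TIMM13 (20.1%). Smaller shares are those of TOMM5 (18.9%), TIMM17B (15.5%), TIMM10B (13.2%), TIMM22 (4.8%) and TIMM44 (2.0%). The values of these genes are uncertain, by an amount that the shared percentage does not measure. By gene span, further overlaps include TIMM13 with LMNB2 on the same strand (63352 counts) and TIMM8B with SDHD on the opposite strand (36221 counts). TIMM23 and TIMM23B are near-identical copies, so their counts are uncertain too. The other genes of the tested set share no exonic base with another gene in that annotation.

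Summed over the 25 genes, the import transcripts took 1988, 1800 and 2043 CPM in the 24 h control replicates A, B and C and 1655, 1582 and 1663 CPM in the 48 h control. With Arg, they took 1971, 1898 and 1895 CPM at 24 h and 1647, 1628 and 1566 CPM at 48 h. Every 48 h library was below every 24 h library, while the Arg and control libraries overlapped at both times. The means were 1944 ± 127 and 1633 ± 44.6 CPM in the control and 1921 ± 43.0 and 1614 ± 42.4 CPM with Arg (SD, n = 3 each). The TOMM genes summed to 1005 ± 59.7 CPM at 24 h and 851.5 ± 5.29 CPM at 48 h in the control, and the TIMM genes to 938.8 ± 67.6 and 782 ± 39.7 CPM.

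**Figure D2:**
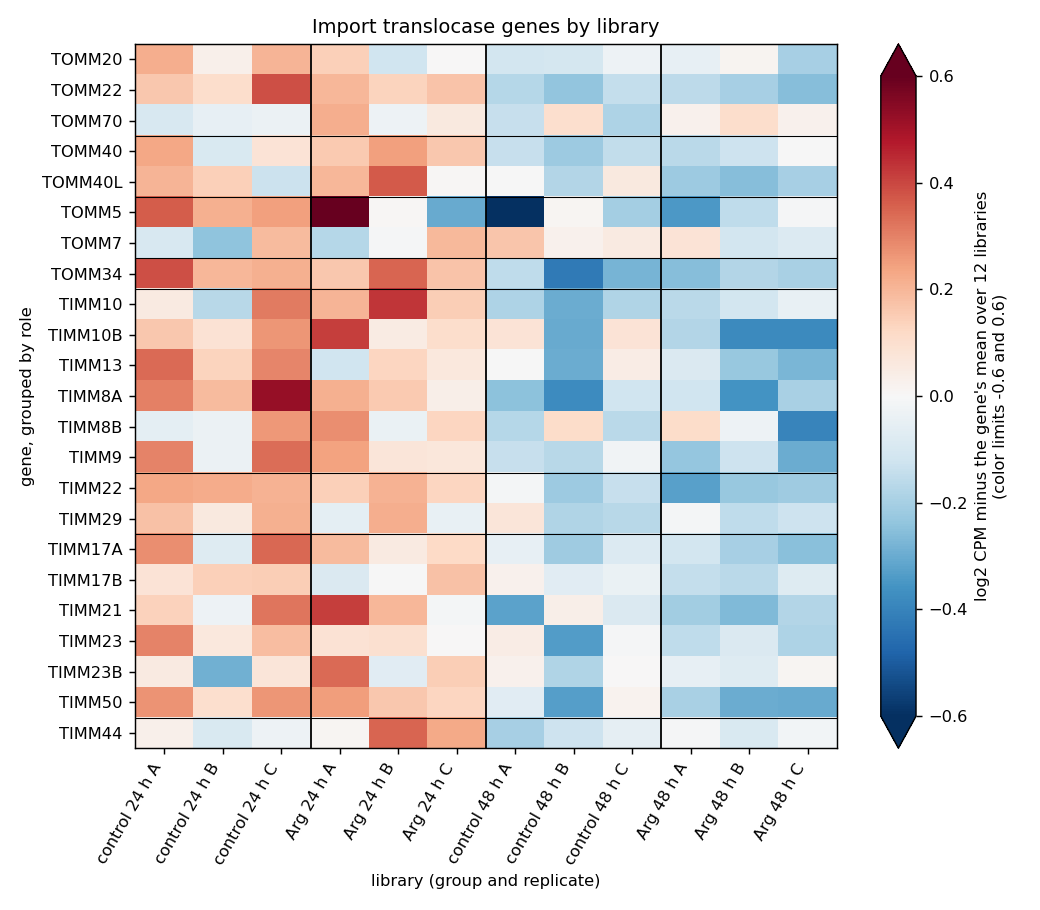
Level of each tested gene in each of the 12 libraries, as the log2 difference from its own mean over the libraries. Most genes are above their mean in the 24 h libraries and below it in the 48 h libraries.

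Among the TOM receptors, TOMM22 fell in both arms. Its gene is ENSG00000100216 at chr22:38681948-38685421 on the plus strand of GRCh38. TOMM22 had 232, 223 and 271 CPM in the 24 h control and 184, 176 and 188 CPM in the 48 h control. With Arg it had 238, 227 and 233 CPM at 24 h and 186, 180.1 and 173 CPM at 48 h. The times did not overlap in either arm. The log2 fold change from 24 h to 48 h was -0.40 ± 0.08 (SE, adjusted p = 0.00777) without Arg and -0.37 ± 0.07 (SE, adjusted p = 0.000272) with Arg.

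TOMM20, the receptor for presequences, had 278, 244 and 275 CPM in the 24 h control and 222, 222 and 234 CPM in the 48 h control. With Arg it had 263, 220.0 and 239.6 CPM at 24 h and 231, 242 and 208 CPM at 48 h. The control libraries of the times did not overlap, while those with Arg did. TOMM20 fell without Arg, with a log2 fold change of -0.23 ± 0.07 (SE, adjusted p = 0.0466), and its value with Arg was -0.09 ± 0.08 (SE, adjusted p = 0.443).

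TOMM70, the receptor that takes carrier precursors from cytosolic chaperones, passed no test in either arm. It had 156, 161 and 163 CPM in the 24 h control and 152, 179 and 147 CPM in the 48 h control. With Arg it had 194, 164 and 174 CPM at 24 h and 170.0, 180.0 and 170.4 CPM at 48 h. The log2 fold changes with time were -0.01 ± 0.09 (SE, adjusted p = 0.97) without Arg and -0.03 ± 0.07 (SE, adjusted p = 0.795) with Arg. At 24 h, all Arg libraries of TOMM70 were above all control libraries, as were those of 12.9% of all genes tested. Its log2 difference between Arg and control of 0.14 ± 0.08 (SE, adjusted p = 0.311) did not pass the threshold.

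TOMM40, the channel of the outer membrane, had 179, 143 and 162 CPM in the 24 h control and 139, 131 and 138 CPM in the 48 h control. With Arg it had 170.2, 181 and 171 CPM at 24 h and 137, 140.2 and 152 CPM at 48 h. The times did not overlap in either arm, and TOMM40 fell with Arg, with a log2 fold change of -0.28 ± 0.07 (SE, adjusted p = 0.00468). Without Arg the log2 fold change was -0.24 ± 0.09 (SE, adjusted p = 0.0683), which did not pass after adjustment.

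TOMM40L, a second form of the channel, had 27.3, 26.2 and 21.6 CPM in the 24 h control and 23.7, 21.0 and 24.7 CPM in the 48 h control. With Arg it had 27.2, 30.5 and 23.8 CPM at 24 h and 20.4, 19.9 and 20.6 CPM at 48 h. It fell with Arg, by a log2 fold change of -0.42 ± 0.11 (SE, adjusted p = 0.00688), and its value without Arg was -0.11 ± 0.12 (SE, adjusted p = 0.552). At 48 h its Arg libraries lay below all control libraries, as did those of 8.52% of all genes tested. The log2 difference of -0.19 ± 0.11 (SE, adjusted p = 0.459) did not pass the threshold.

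The small TOM subunits TOMM5 and TOMM7, which steady the complex, did not pass the test in any comparison. TOMM7 ranged from 48.0 to 64.7 CPM over the 12 libraries and TOMM5 from 0.419 to 2.30 CPM. TOMM7 had the highest log2 fold change with time of the set without Arg, 0.12 ± 0.11 (SE, adjusted p = 0.455).

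TOMM34, a cytosolic co-chaperone that binds HSP70 and HSP90 and precursor proteins, fell in both arms. Its gene is ENSG00000025772 at chr20:44942130-44960486 on the minus strand of GRCh38. TOMM34 had 102, 89.4 and 90.3 CPM in the 24 h control and 70.2, 58.1 and 64.2 CPM in the 48 h control. With Arg it had 87.3, 99.2 and 87.7 CPM at 24 h and 65.3, 69.0 and 68.0 CPM at 48 h. No 48 h library reached the lowest 24 h library. The log2 fold change was -0.55 ± 0.09 (SE, adjusted p = 0.00369) without Arg and -0.44 ± 0.08 (SE, adjusted p = 0.000312) with Arg.

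**Figure D3:**
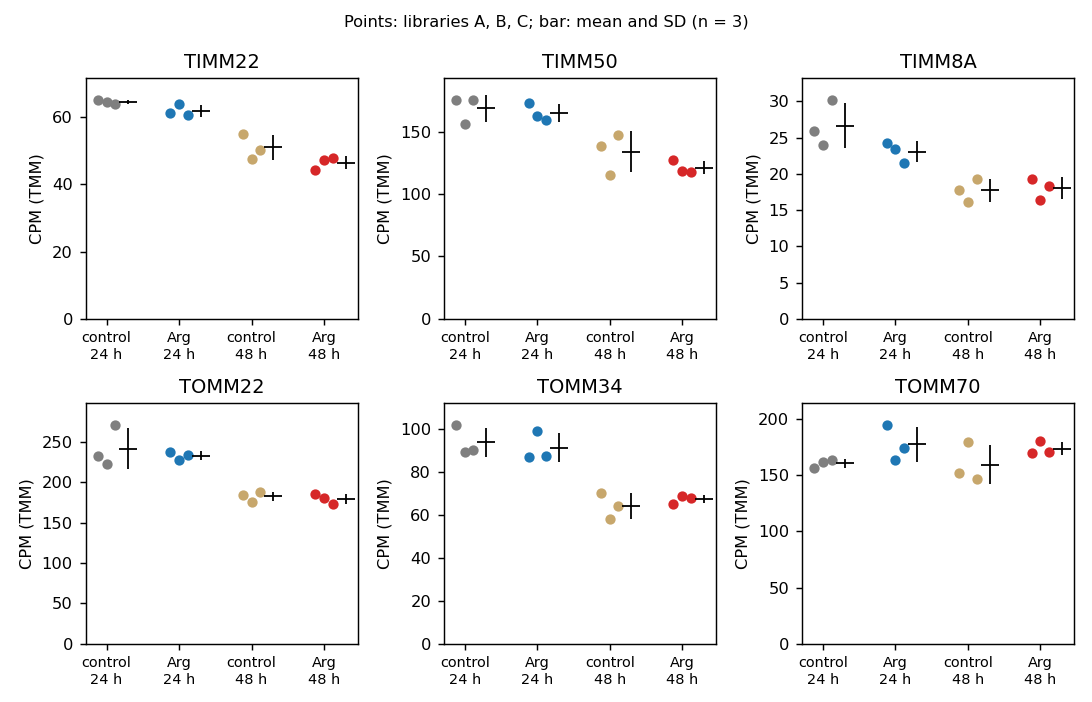
CPM of the 5 genes that fell in both arms, and of TOMM70 for contrast, in each library of the 4 groups, with the mean and SD (n = 3). The 48 h points of TIMM22, TIMM50, TIMM8A, TOMM22 and TOMM34 lie below their 24 h points in both arms, and those of TOMM70 overlap with them.

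Of the 6 small TIM chaperones, which escort hydrophobic precursors through the intermembrane space, 2 fell without Arg and 4 fell with Arg. TIMM8A, the gene mutated in deafness-dystonia syndrome, fell in both arms. Its gene is ENSG00000126953 at chrX:101345659-101349196 on the minus strand of GRCh38. It had 25.9, 24.0 and 30.2 CPM in the 24 h control and 17.7, 16.2 and 19.3 CPM in the 48 h control, and with Arg 24.3, 23.4 and 21.5 CPM at 24 h and 19.3, 16.4 and 18.3 CPM at 48 h. The times did not overlap in either arm, and the log2 fold change was -0.58 ± 0.12 (SE, adjusted p = 0.00894) without Arg and -0.35 ± 0.11 (SE, adjusted p = 0.0219) with Arg. TIMM13, which forms a hexamer with TIMM8A, had 84.5, 73.4 and 82.0 CPM in the 24 h control and 66.8, 54.4 and 68.9 CPM in the 48 h control, and with Arg 61.5, 73.2 and 69.8 CPM at 24 h and 62.9, 57.2 and 55.3 CPM at 48 h. TIMM13 fell without Arg (-0.33 ± 0.10 (SE, adjusted p = 0.0394)), while with Arg the times overlapped and the log2 fold change was -0.22 ± 0.09 (SE, adjusted p = 0.0647).

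TIMM9 and TIMM10 form the other chaperone hexamer, and TIMM10B sits with them at the TIM22 complex. TIMM9 had 34.7, 27.5 and 35.6 CPM at 24 h and 25.6, 25.1 and 27.8 CPM at 48 h in the control, and 33.4, 29.7 and 29.6 CPM and 24.1, 25.9 and 23.0 CPM with Arg. TIMM10 had 30.4, 26.1 and 36.3 CPM at 24 h and 25.8, 23.8 and 25.8 CPM at 48 h in the control, and 33.7, 39.5 and 32.4 CPM and 26.2, 27.1 and 28.4 CPM with Arg. TIMM10B had 21.8, 20.7 and 23.4 CPM at 24 h and 20.6, 15.8 and 20.6 CPM at 48 h in the control, and 25.9, 20.1 and 20.9 CPM and 17.2, 14.9 and 14.9 CPM with Arg. With Arg the times did not overlap for any of the 3 genes, and in the control they overlapped for TIMM9 alone. All 3 fell with Arg, with log2 fold changes of -0.34 ± 0.10 (SE, adjusted p = 0.0131) for TIMM9, -0.37 ± 0.10 (SE, adjusted p = 0.00843) for TIMM10 and -0.51 ± 0.12 (SE, adjusted p = 0.00453) for TIMM10B. The values without Arg were -0.31 ± 0.12 (SE), -0.30 ± 0.13 (SE) and -0.21 ± 0.13 (SE), with adjusted p of 0.0791, 0.117 and 0.296. TIMM8B, the paralogue of TIMM8A, ranged from 82.7 to 132 CPM and passed no test.

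In the carrier translocase, TIMM22, which forms the core of the TIM22 complex, fell in both arms. Its gene is ENSG00000177370 at chr17:997117-1003671 on the plus strand of GRCh38. TIMM22 had 65.1, 64.7 and 64.0 CPM in the 24 h control and 55.0, 47.7 and 50.3 CPM in the 48 h control, and with Arg 61.1, 64.1 and 60.6 CPM at 24 h and 44.2, 47.3 and 47.9 CPM at 48 h. The times did not overlap in either arm. The log2 fold change was -0.34 ± 0.08 (SE, adjusted p = 0.017) without Arg and -0.41 ± 0.08 (SE, adjusted p = 0.000647) with Arg. TIMM29, its other subunit in the set, ranged from 29.9 to 39.5 CPM and passed no test.

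Of the 6 genes of the TIM23 complex, 1 fell without Arg and 4 fell with Arg. TIMM50, the receptor that takes presequences from the TOM complex, fell in both. Its gene is ENSG00000105197 at chr19:39480412-39493785 on the plus strand of GRCh38. It had 175, 156 and 175 CPM in the 24 h control and 139, 116 and 148 CPM in the 48 h control, and with Arg 173, 163 and 159 CPM at 24 h and 127, 118 and 118 CPM at 48 h. The times did not overlap in either arm, and the log2 fold change was -0.33 ± 0.10 (SE, adjusted p = 0.032) without Arg and -0.44 ± 0.07 (SE, adjusted p = 9.49e-05) with Arg, the latter with the lowest adjusted p of the set.

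TIMM23, a core membrane subunit, had 132, 112 and 122 CPM at 24 h and 111, 84.9 and 107 CPM at 48 h in the control, and 114, 115 and 107 CPM and 96.3, 101 and 94.2 CPM with Arg. TIMM17A, its partner in the membrane, had 91.7, 71.5 and 95.8 CPM at 24 h and 73.1, 65.0 and 71.4 CPM at 48 h in the control, and 86.1, 78.3 and 82.1 CPM and 69.9, 65.7 and 63.4 CPM with Arg. TIMM21, which contacts the TOM complex, had 36.8, 32.8 and 41.8 CPM at 24 h and 26.8, 34.3 and 31.5 CPM at 48 h in the control, and 44.5, 38.3 and 33.1 CPM and 28.9, 27.8 and 29.6 CPM with Arg. With Arg the times did not overlap for these 3 genes, and without Arg they overlapped for TIMM17A and TIMM21. The 3 genes fell with Arg, with log2 fold changes of -0.20 ± 0.07 (SE, adjusted p = 0.0389) for TIMM23, -0.31 ± 0.08 (SE, adjusted p = 0.00566) for TIMM17A and -0.42 ± 0.10 (SE, adjusted p = 0.00467) for TIMM21. Without Arg the values were -0.27 ± 0.10 (SE), -0.30 ± 0.11 (SE) and -0.26 ± 0.12 (SE), with adjusted p of 0.0886, 0.0677 and 0.149. TIMM17B, the paralogue of TIMM17A, ranged from 39.8 to 50.3 CPM and TIMM23B from 10.3 to 15.9 CPM, and neither passed a test.

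TIMM44, which anchors the import motor to TIM23, had 58.3, 53.7 and 55.9 CPM in the 24 h control and 49.7, 52.4 and 55.0 CPM in the 48 h control, and with Arg 57.7, 72.9 and 66.9 CPM at 24 h and 56.9, 53.6 and 56.4 CPM at 48 h. The times did not overlap with Arg and overlapped without it. TIMM44 fell with Arg, with a log2 fold change of -0.24 ± 0.09 (SE, adjusted p = 0.0497), and its value without Arg was -0.09 ± 0.08 (SE, adjusted p = 0.467).

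**Figure D4:**
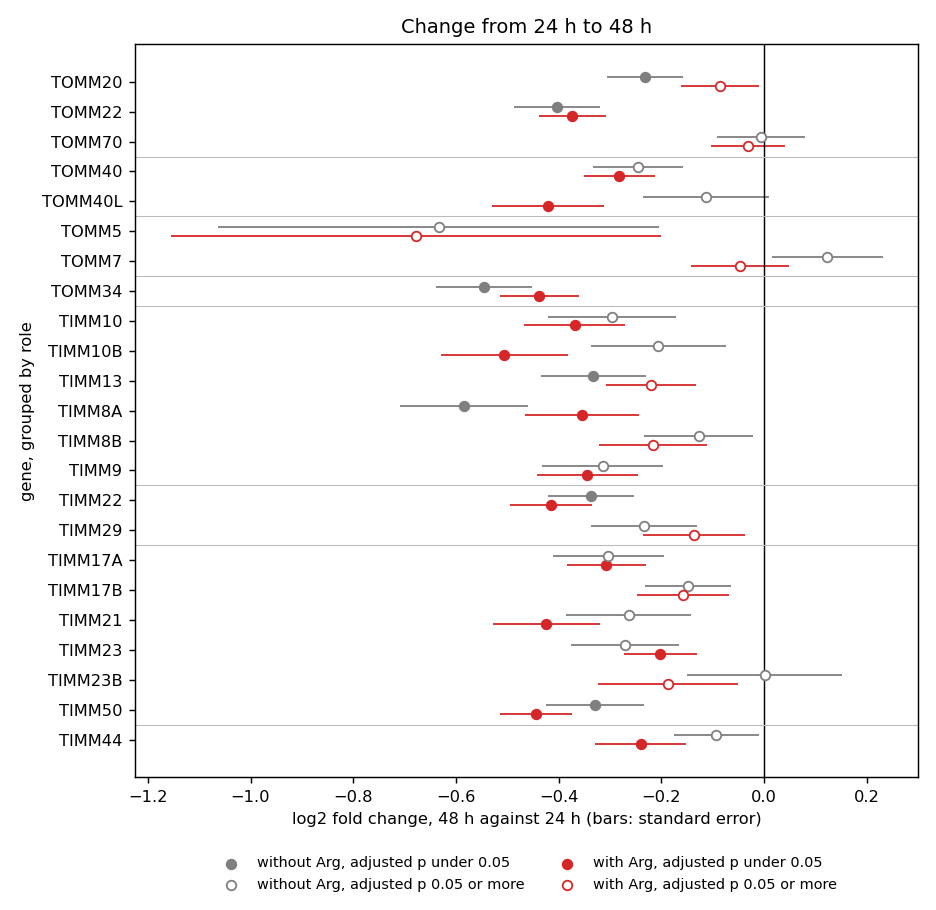
Log2 fold change from 24 h to 48 h of each tested gene, without and with Arg, with standard errors. Filled points passed an adjusted p of 0.05, and all points with Arg and 21 of 23 without Arg lie below 0.

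The median log2 fold change of the 23 genes with time was -0.26 without Arg and -0.31 with Arg, against 0.01 and 9e-04 for all genes tested. The signs were negative for 21 of 23 genes without Arg and for 23 of 23 with Arg. The 48 h libraries lay wholly below the 24 h libraries for 13 genes without Arg and 14 with Arg, against 19.8% and 21.2% of all genes, and wholly above for 0 genes, against 19.2% and 21.1%. The arms share no library, and 5 genes fell in both, which is 71.4% of the 7 and 35.7% of the 14. The share of all genes that fell in both arms was not computed, so this overlap has no background beside it. Across the 23 genes, which are not independent replicates, the changes of the arms had a Pearson r of 0.692 and a Spearman rho of 0.611. Without TOMM5, which had few counts, these were 0.6 and 0.555.

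The number of genes that fell without Arg depended on single libraries and on the scaling. It was 2, 3 and 11 without control replicate C, A or B at 24 h, 4 without control replicate A or B at 48 h, 4 with library size scaling alone and 11 in a model of all 12 libraries. The share of all genes that fell moved too, to 3.36%, 2.74% and 11.6% without control replicate C, A or B at 24 h and to 6.22% and 8.60% without control replicate A or B at 48 h. It was 6.98% with library size scaling alone and 12.4% in the model of all 12 libraries. Under library size scaling, 1845 genes rose and 1008 fell without Arg, in place of 1431 and 1451, and 2568 rose and 1453 fell with Arg, in place of 2060 and 2012. TOMM22 and TOMM34 passed in all 6 fits that left out a library in each arm, TIMM8A in 5 of 6 without Arg and 2 of 6 with Arg, TIMM22 in 3 and 6, and TIMM50 in 2 and 6. TOMM20 passed in 1 of 6 and TIMM13 in 2 of 6 without Arg, and TIMM44 in 1 of 6 and TIMM23 in 2 of 6 with Arg. With Arg, the number that fell lay between 10 and 14 when a library was left out.

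The comparison of Arg with control asked whether added Arg moved the import genes at each time. It shares its libraries with the comparisons over time. At 24 h, 0 of 23 genes passed an adjusted p of 0.05 in either direction, against 2.79% of all genes higher and 3.84% lower. At an unadjusted p under 0.05, 1 gene was higher and 1 lower, against 10.8% and 11.9% of all genes. TIMM44 was the higher one, with a log2 difference of 0.23 ± 0.10 (SE, adjusted p = 0.163) and an unadjusted p of 0.0284, and its Arg libraries overlapped with the control. TIMM13 was the lower one, with -0.23 ± 0.09 (SE, adjusted p = 0.146) and an unadjusted p of 0.0233, and its Arg libraries were all below the control. The next lower values were -0.21 ± 0.12 (SE) for TIMM8A and -0.14 ± 0.09 (SE) for TOMM20 (adjusted p = 0.296 and 0.338). Without Arg replicate A, TIMM44 had a log2 difference of 0.31 and an adjusted p of 0.0482. The Arg libraries lay wholly above the control for 1 of the 23 genes and wholly below for 1, against 12.9% and 13.4% of all genes.

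At 48 h, 0 of 23 genes passed in either direction, against 0% of all genes higher and 0.117% lower. At an unadjusted p under 0.05 it was also 0 and 0, against 5.94% and 7.49%. The lowest log2 difference was -0.28 ± 0.13 (SE, adjusted p = 0.398) for TIMM10B, followed by TOMM40L and by -0.15 ± 0.09 (SE, adjusted p = 0.488) for TIMM50. TIMM10 was above the control in all Arg libraries at 0.11 ± 0.09 (SE, adjusted p = 0.637). It was the 1 gene wholly above, against 8.55% of all genes. The 2 genes wholly below were TOMM40L and TIMM17B, against 8.52% of all genes. Without control replicate B at 48 h, the library with the highest mitochondrially encoded share, 3 genes passed: TOMM70 at 0.21 (adjusted p = 0.0151), TIMM50 at -0.24 (adjusted p = 0.0105) and TIMM10B at -0.39 (adjusted p = 0.0237). In that same fit 7.76% of all genes were higher and 8.17% lower (1152 and 1213 genes, in place of 0 and 17 with all libraries), so the 1 higher and 2 lower import genes of 23 were near the background. With all libraries, DESeq2 called 0 of the 23 genes at either time.

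**Figure D5:**
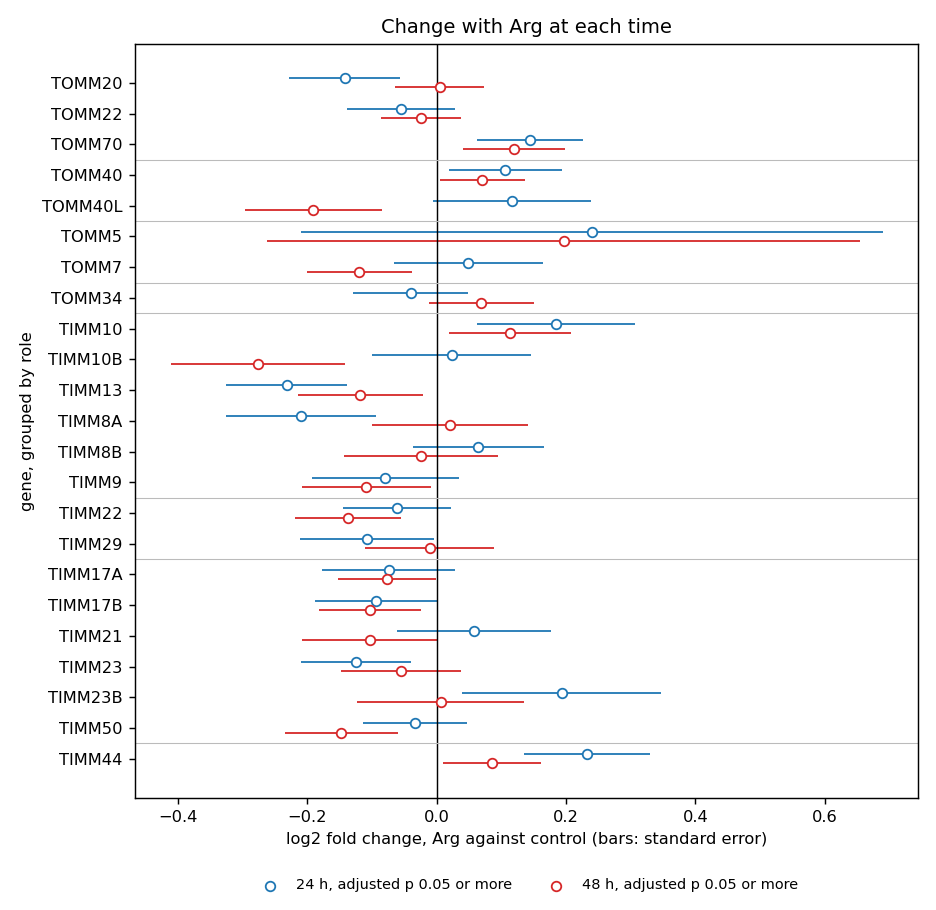
Log2 difference between Arg and control of each tested gene at 24 h and at 48 h, with standard errors. Points lie on both sides of 0 at each time, and none passed an adjusted p of 0.05.

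The median log2 difference between Arg and control was -0.03 at 24 h and -0.02 at 48 h, against 0.003 and 0.0018 for all genes. These medians were near 0 and their sign depended on the processing, at 0.0067 and 0.0323 with the exonic length correction, and at 24 h also 0.0059 and 0.0173 without control replicate A or C. The difference between the Arg effects at the times was tested as an interaction, in which 0 of 23 genes passed, against 0.0132% of all genes higher and 0% lower, and 0 of 23 had an unadjusted p under 0.05. Its lowest value was -0.31 ± 0.16 (SE, adjusted p = 0.777) for TOMM40L. The larger number of falls with Arg than without is therefore not shown to be a difference between the arms. The standard errors of the Arg differences lay between 0.0621 and 0.1542 on the log2 scale for the 22 genes other than TOMM5.

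Ratios of paralogues were compared between Arg and control within each time by a two-sided exact permutation test, where 3 libraries against 3 cannot give a p below 0.1. TOMM40 to TOMM40L was 5.37 in the control and 6.41 with Arg at 48 h (exact p = 0.1, 0.4 after adjustment over 8 tests). TIMM8A to TIMM8B was 0.0773 in the control and 0.0641 with Arg at 24 h (exact p = 0.1, 0.4 adjusted). The other 6 ratios had exact p between 0.2 and 1.

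The proteins that work with the translocases were taken as a list of 37 genes. They covered cytosolic chaperones that deliver precursors, the motor, oxidative folding, membrane insertion, matrix folding and processing peptidases. The 9 genes listed as processing peptidases included UQCRC1 and UQCRC2, which encode subunits of respiratory complex III. Of the 9, 0 passed edgeR's test after adjustment in any comparison. Of these, XPNPEP3 at each time with Arg and UQCRC2 with time in each arm had an unadjusted p under 0.05. With time, 9 of 37 fell and 1 rose without Arg, and 13 fell and 1 rose with Arg. HSPA8, the constitutive cytosolic HSP70 that hands precursors to TOMM70, fell by 1.15 ± 0.08 (SE, adjusted p = 0.000109) without Arg and 1.24 ± 0.07 (SE, adjusted p = 1.35e-09) with Arg on the log2 scale. HSP90AB1, DNAJA1, DNAJA2, HSPD1, TRAP1, MTCH2 and GRPEL1 also fell in both arms. HSPD1, the matrix chaperonin, had log2 fold changes of -0.39 ± 0.07 (SE, adjusted p = 0.00457) and -0.41 ± 0.06 (SE, adjusted p = 7.25e-05). CHCHD4 and GFER, the oxidative folding relay for the small TIM proteins, fell with Arg (-0.58 ± 0.14 (SE, adjusted p = 0.00323) and -0.50 ± 0.09 (SE, adjusted p = 0.00022)). Their values without Arg were -0.41 ± 0.17 (SE, adjusted p = 0.113) and -0.29 ± 0.10 (SE, adjusted p = 0.0736). HSPE1, HSP90AA1 and SAMM50 also passed as lower with Arg only, and GRPEL2 without Arg only.

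The gene that rose was DNAJC15, a motor co-chaperone, with 0.93 ± 0.18 (SE, adjusted p = 0.00636) without Arg and 0.48 ± 0.13 (SE, adjusted p = 0.0106) with Arg. It was also higher with Arg at 24 h, at 0.60 ± 0.16 (SE, adjusted p = 0.0322). No other gene of the 37 passed there, where 2.79% of all genes were higher and 3.84% lower. At 48 h, 1 of 37 passed, the matrix co-chaperonin gene HSPE1, lower with Arg at -0.56 ± 0.09 (SE, adjusted p = 0.0315). Of all genes, 0.117% were lower there. In the interaction, 0 of 37 passed in edgeR's test, and 1 had an unadjusted p under 0.05.

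Other mitochondrial gene groups are given for scale. Of 78 mitochondrial ribosomal protein genes, 27 fell without Arg (median log2 fold change -0.25) and 32 with Arg (median -0.20), and 0 rose. Of the nuclear genes of complex I, 0 of 36 fell and 1 rose without Arg (median 0.08), and 2 of 37 fell and 1 rose with Arg (median 0.01). The differences between these groups and the import genes were not tested.

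The promoters shown are those of the genes that passed the threshold in both arms. Whether these genes moved together more than the rest of the set was not tested. They come from RefSeq on GRCh38.p14, where 23 of the 25 genes had an entry (not TIMM8B and TOMM5), and run 5′ to 3′ from 250 bases before the start to 50 after it. Matches to the motifs described after them are in capitals, on either strand, so that CTTCCGG is the ETS motif read from the other strand. For TIMM8A and TIMM50, the RefSeq start lies well inside the gene span of the deposited table.
TIMM22 (chr17:996879-997178, plus strand): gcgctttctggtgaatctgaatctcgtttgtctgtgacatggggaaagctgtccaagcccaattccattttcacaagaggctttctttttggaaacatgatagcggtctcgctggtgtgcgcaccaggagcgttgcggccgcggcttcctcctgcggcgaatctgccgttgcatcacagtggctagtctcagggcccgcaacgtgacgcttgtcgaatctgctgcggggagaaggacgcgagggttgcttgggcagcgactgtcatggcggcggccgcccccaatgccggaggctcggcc
TIMM50 (chr19:39480588-39480887, plus strand): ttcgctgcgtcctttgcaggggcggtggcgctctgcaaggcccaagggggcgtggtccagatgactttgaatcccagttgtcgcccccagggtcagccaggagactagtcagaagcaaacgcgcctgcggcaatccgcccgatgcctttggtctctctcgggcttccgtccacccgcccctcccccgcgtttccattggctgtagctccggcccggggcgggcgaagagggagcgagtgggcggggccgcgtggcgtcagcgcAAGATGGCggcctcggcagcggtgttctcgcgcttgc
TIMM8A (chrX:101348693-101348992, minus strand): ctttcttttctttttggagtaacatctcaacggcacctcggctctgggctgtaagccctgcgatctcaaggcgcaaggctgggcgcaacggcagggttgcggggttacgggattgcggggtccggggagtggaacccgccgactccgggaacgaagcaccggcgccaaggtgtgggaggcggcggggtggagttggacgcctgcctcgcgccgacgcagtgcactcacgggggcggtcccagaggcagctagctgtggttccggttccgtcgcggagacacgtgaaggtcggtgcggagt
TOMM22 (chr22:38681707-38682006, plus strand): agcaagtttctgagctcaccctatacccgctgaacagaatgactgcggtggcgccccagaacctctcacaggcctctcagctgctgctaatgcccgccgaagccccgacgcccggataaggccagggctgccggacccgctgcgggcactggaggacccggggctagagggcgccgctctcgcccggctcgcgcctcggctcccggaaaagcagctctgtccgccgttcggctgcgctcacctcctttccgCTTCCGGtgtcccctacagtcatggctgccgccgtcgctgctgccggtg
TOMM34 (chr20:44960348-44960647, minus strand): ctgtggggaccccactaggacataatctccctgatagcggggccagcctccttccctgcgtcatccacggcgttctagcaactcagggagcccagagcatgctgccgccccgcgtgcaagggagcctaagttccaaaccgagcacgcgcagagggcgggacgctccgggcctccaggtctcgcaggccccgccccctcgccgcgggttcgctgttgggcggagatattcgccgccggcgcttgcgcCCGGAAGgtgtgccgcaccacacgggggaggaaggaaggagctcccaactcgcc

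Motifs of factors known for nuclear-encoded mitochondrial genes were searched on both strands, with no match of one overlapping another in this set. The ETS motif CCGGAAG, bound by GABPA, was in 11 of 23 promoters (47.8%), against 10.7% of the 27305 promoters in the table. That background was every promoter listed and not only those of expressed genes. The 11 include the near-identical copies TIMM23 and TIMM23B, and TOMM6, which had 0 counts. The contrast was not tested. The NRF1 motif GCGCATGC was in 3 (13.0% against 3.3%) and the YY1 motif AAGATGGC in 2 (8.7% against 3.0%). Among the 5 printed promoters, TOMM22 and TOMM34 held the ETS motif, TIMM50 the YY1 motif, and TIMM22 and TIMM8A none of them. Of the 7 tested genes that fell in neither arm, 5 had a promoter entry, and 3 of these held the ETS motif. A match is a description of letters and not a site.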

How the data were processed

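RNA sequencing of TIGK cells at 48 mM glucose, with or without 500 μM Arg for 24 or 48 h, gave 12 libraries, which were grouped by their labels. The authors deposited raw read counts per gene with exonic lengths, without normalization. Per the submitters' notes, the reads were processed with fastp, STAR and featureCounts on GRCh38/hg38. Tool versions, the annotation release and the strand setting are not given in the sources used here. Count columns left out numbered 0.

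Libraries of each pair of groups were compared with edgeR 4.0.16 (R 4.3.3) after TMM scaling and its own low-count filter, by the quasi-likelihood test with no block, and the Benjamini-Hochberg adjustment of the p-values took in all genes tested. The interaction used all 12 libraries. The standard error is the log2 fold change divided by the square root of F. Scripts were tested on simulated data. Depth limits the precision of TOMM5 and TOMM20L, which had few counts.

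Genes named with the value of every library were those called in any comparison, the core subunits, and those with the smallest p for Arg or the interaction. The genes of the set, the lists of other genes and the motifs were chosen with earlier results of these data known. Exonic overlaps came from GENCODE v44 and promoters from RefSeq.

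The alternatives were the DESeq2 test (version 1.42.0), scaling by DESeq2's factors or by library size alone, no filter, a minimum of 10 counts per library, one joint model of the 12 libraries, a block for the replicate letter, exonic length removed as a lowess trend (span 0.3, prior count 2) without or with that block, fits without the mitochondrially encoded genes, and each library omitted once.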

Additional observations from a re-analysis of the deposited data

How the results depend on the processing

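No import gene that had passed the test changed direction under any alternative, and the partner genes were not run under the alternatives. The number of import genes that fell without Arg at an adjusted p under 0.05 was 7. It became 4 with library size only, 11 with all 12 libraries in a single model and 11 with the exonic length correction and the replicate block. It lay between 2 and 11 when a library was left out, and the number at an unadjusted p between 7 and 14, with 0 to 1 higher. With Arg, the number that fell was 14, beside 14.0% of all genes. It became 9, beside 12.3%, under the length correction with the replicate block. For Arg at 24 h, the number lower at an unadjusted p became 0 under that correction. For Arg at 48 h, it became 1 with no filter on low counts. When a library was left out at 24 h, 0 to 1 genes were higher at an adjusted p, and 0 to 1 were higher and 0 to 5 lower at an unadjusted p. At 48 h, 0 to 1 were higher and 0 to 2 lower at an adjusted p, and 0 to 1 higher and 0 to 6 lower at an unadjusted p. Over all genes, these fits called 0.859% to 4.42% higher and 1.59% to 6.02% lower at an adjusted p at 24 h. At 48 h they called 0% to 7.76% higher and 0.0336% to 8.17% lower. Shares of all genes at an unadjusted p were not computed for these fits. In the interaction, 0 to 2 import genes were lower at an unadjusted p. The cause was not tested.

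The replicate letters are shared by the groups. The deviations of libraries of the same letter had low correlations, between -0.0566 and 0.154, so these libraries were not treated as pairs. From 24 h to 48 h without Arg the correlations were all positive, at 0.0581, 0.154 and 0.0439 for A, B and C. With the replicate block, the number of import genes that fell without Arg was 11, beside 14.4% of all genes. Over all genes without Arg, 2075 fell and 1969 rose with the block, in place of 1451 and 1431. With Arg the numbers went the other way, to 1853 and 1926 in place of 2012 and 2060. The cause of these shifts was not tested. A p that misses the threshold here does not show that a gene did not differ.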

Other observations

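Pseudogenes named after the import genes took few reads. Of 15 such genes outside chromosome Y, 4 had a count, 29 counts in all over the 12 libraries, of which TIMM8AP1 had 19.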
